A study of Mus musculus with 8 samples.

Results

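Deadenylation, exosome and nonsense-mediated decay (NMD) factors were followed as 1 set of 39 genes. Their products shorten the poly(A) tail of mRNAs, degrade RNA from its 3' end or destroy transcripts with a premature stop codon. Xrn2, which acts from the 5' end, is the exception. The genes were chosen by name from 5 groups of factors, 11 of the CCR4-NOT complex, 5 of the PAN2-PAN3, PARN and Tob group, 9 NMD factors, 11 of the RNA exosome and 3 of the SKI complex and Xrn2. Their mouse Ensembl identifiers were found through GENCODE M21, and all 39 were among the 38293 identifiers of the count table. The samples were left ventricles of 8 untreated male C57BL/6 mice of 8 weeks, with 4 wild-type hearts (WT, replicates 1 to 4) and 4 hearts labelled mORF4-NBDY_KO (KO, replicates 5 to 8). Each heart gave 1 library of poly(A) RNA. Nbdy, also called mORF4, codes for a small protein of the mRNA decapping machinery. The labels do not say how the KO allele was made, and they name no Cre, promoter or further allele in either group.

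Cytoplasmic mRNA decay usually begins at the poly(A) tail. PAN2-PAN3 and CCR4-NOT remove the tail, after which the transcript is decapped and digested from its 5' end or is degraded by the exosome from its 3' end, with the SKI complex feeding RNA into the exosome in the cytoplasm. NMD recognises stop codons that lie upstream of an exon junction or in an unusual context, through the helicase Upf1 and the kinase Smg1, and is needed in most tissues, the heart included.

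The promoters of 4 of these genes hold the same palindrome. They are shown because 1 of them belongs to Dis3, whose transcript differed most between the genotypes. The log2 fold changes of KO over WT were 0.45 for Dis3, 0.09 for Exosc10, -0.16 for Upf3a and -0.13 for Upf3b. None of these 4 genes had an edgeR adjusted p under 0.05. Windows from 250 bases before to 50 bases after the transcription start were taken from RefSeq (build GRCm38.p6) and were found for 34 of the 39 genes, all but Cnot1, Cnot7, Exosc4, Exosc9 and Skiv2l. The windows are Dis3 at chr14:99099721-99100020 on the minus strand, Exosc10 at chr4:148558169-148558468 on the plus strand, Upf3a at chr8:13785365-13785664 on the plus strand and Upf3b at chrX:37110273-37110572 on the minus strand. A window of Upf1, at chr8:70353230-70353529 on the minus strand, is shown for another motif. Each is printed 5' to 3' on the strand of its gene, and the capitals mark CTCGCGAG, the core of the palindrome bound by the factor BANP, and GCATGCGC on either strand, the motif of the factor NRF1.
Dis3: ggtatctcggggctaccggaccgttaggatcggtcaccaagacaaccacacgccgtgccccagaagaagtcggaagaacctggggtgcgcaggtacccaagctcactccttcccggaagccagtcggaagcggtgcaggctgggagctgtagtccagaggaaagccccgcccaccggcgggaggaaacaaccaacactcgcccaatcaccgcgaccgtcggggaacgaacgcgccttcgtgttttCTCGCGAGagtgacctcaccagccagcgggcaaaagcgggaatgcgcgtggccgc
Exosc10: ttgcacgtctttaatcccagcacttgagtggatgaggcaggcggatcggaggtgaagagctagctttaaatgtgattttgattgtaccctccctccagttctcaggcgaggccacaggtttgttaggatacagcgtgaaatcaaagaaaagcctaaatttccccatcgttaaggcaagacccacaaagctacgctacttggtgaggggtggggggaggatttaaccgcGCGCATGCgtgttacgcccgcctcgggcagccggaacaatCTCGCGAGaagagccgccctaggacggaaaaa
Upf3a: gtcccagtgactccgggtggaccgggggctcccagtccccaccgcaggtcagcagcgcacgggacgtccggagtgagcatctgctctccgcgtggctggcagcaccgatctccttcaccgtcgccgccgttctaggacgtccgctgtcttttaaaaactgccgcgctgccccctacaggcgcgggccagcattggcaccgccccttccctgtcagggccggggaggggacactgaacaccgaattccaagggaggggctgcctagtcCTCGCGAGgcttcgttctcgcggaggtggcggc
Upf3b: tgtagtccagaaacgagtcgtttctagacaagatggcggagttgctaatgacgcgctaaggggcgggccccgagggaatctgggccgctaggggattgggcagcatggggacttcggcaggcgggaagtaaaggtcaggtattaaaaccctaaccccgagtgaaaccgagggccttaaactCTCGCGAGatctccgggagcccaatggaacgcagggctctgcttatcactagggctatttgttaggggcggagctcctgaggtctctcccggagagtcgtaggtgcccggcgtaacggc
Upf1: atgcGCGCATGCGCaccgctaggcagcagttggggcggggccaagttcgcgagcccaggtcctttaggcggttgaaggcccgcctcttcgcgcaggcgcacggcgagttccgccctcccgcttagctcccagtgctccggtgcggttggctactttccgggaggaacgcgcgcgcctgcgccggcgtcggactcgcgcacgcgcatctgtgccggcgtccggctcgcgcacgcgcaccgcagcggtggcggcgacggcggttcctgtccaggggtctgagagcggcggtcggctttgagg
CTCGCGAG was present in the windows of 4 of 34 genes (11.8%) against 2.07% of the tested genes with a window and 1.04% of all genes with one. GCATGCGC, read on both strands, was present for 7 of 34 genes (20.6%), namely Cnot4, Cnot9, Exosc5, Exosc10, Smg9, Ttc37 and Upf1, against 5.88% of the tested genes and 3.05% of all. These motifs do not overlap in Exosc10, the gene that holds both. CCGGAAG, the core of ETS factor sites, was present for 26.5% of the 34 genes, 19.5% of the tested genes and 9.93% of all genes. CCAAT was present for 38.2%, 42.4% and 41.1%, and the GC box GGGCGG for 79.4%, 68.6% and 38.2%, each on both strands. The motifs were chosen with these data known, CTCGCGAG after the Dis3 window had been read, and a match describes letters and not binding.

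Totals ran from 11101901 to 14699949 counts per heart. Nbdy was measured first, as a check of the labels, and fell to 0.511 of the WT level, with 208 to 248 counts in WT and 115 to 137 in KO (log2 fold change -0.97 ± 0.11 SE, edgeR adjusted p = 0.0060). Without KO replicate 6 its log2 fold change was -0.96 and its adjusted p 0.0562 in edgeR. The tissue label was matched by markers of heart muscle, which summed to 82550 to 99220 CPM (counts relative to the TMM-scaled library size) in WT and 85430 to 99070 in KO. Of the atrial markers, Sln was at 0 in 5 libraries and Myl7 reached at most 2.25 CPM. Myl4 was at 4.15 to 7.15 CPM in WT and at 3.5 to 8.23 CPM in KO. Within their genotype, Sln, Myl7 and Myl4 were each highest in WT replicate 1 and in KO replicate 6. Nppa made up most of the atrial sum of 264 to 481 CPM in WT and 457 to 713 in KO (exact permutation p = 0.0571, adjusted 0.286 over 10 measures). The 8 fibroblast markers all had values below 0 and summed to 1099 to 1405 CPM in WT and 902 to 1170 in KO (exact permutation p = 0.0571, adjusted 0.286), and the 8 blood markers all had values above 0, with sums of 818 to 1788 and 1149 to 2155 CPM. Mitochondrial genes took 29.2% of counts in WT replicate 1 and 19.4% to 19.9% in the other WT hearts, against 23.0% to 26.7% in KO. The part of these differences in the results was not tested. In bulk tissue, fewer cells of a type and less RNA per cell cannot be told apart.

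All 39 transcripts were present in every heart, with 42 to 1506 counts per gene and library, and all 39 passed the filter on low counts. None of the 39 passed the test of KO against WT (edgeR quasi-likelihood test, adjusted over 13336 genes), where 0.0225% of all genes tested did. The smallest adjusted p was 0.711, that of Dis3, and DESeq2 and limma-voom called none of the 39 either. Without adjustment 2 genes had an edgeR p below the same threshold, where the share over all genes was 6.4%. These were Dis3, higher in KO as were 3.5% of all genes, and Exosc1, lower in KO as were 2.89%. The KO and WT hearts did not overlap for 1 gene, Dis3, where 4.12% of all genes tested did not overlap in either direction and 2.14% had all KO hearts above. The median log2 fold change was 0.015 over the 39 genes and -0.0032 over all genes, and 23 of the 39 values (59.0%) were above 0 against 49.4% of all genes. Scaled by library totals alone, which moved the median of all genes to -0.05, 18 of the 39 values (46.2%) were above 0. The other genes of the set had values from -0.33 to 0.26. Hearts were the replicates, so each p-value sets the difference between the genotypes against the spread between hearts within a genotype.

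The intervals were narrow for most of the genes. For 34 of the 39 genes the 95% interval of the fold change lay within 1.5-fold in either direction, which held for 61.9% of all genes tested. The intervals of Cnot3, Smg1, Exosc1, Dis3 and Ttc37 reached further. Over the set the intervals extended from 0.652-fold to 1.71-fold, and the median SE was 0.13 on the log2 scale against 0.16 over all genes.

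**Figure D1:**
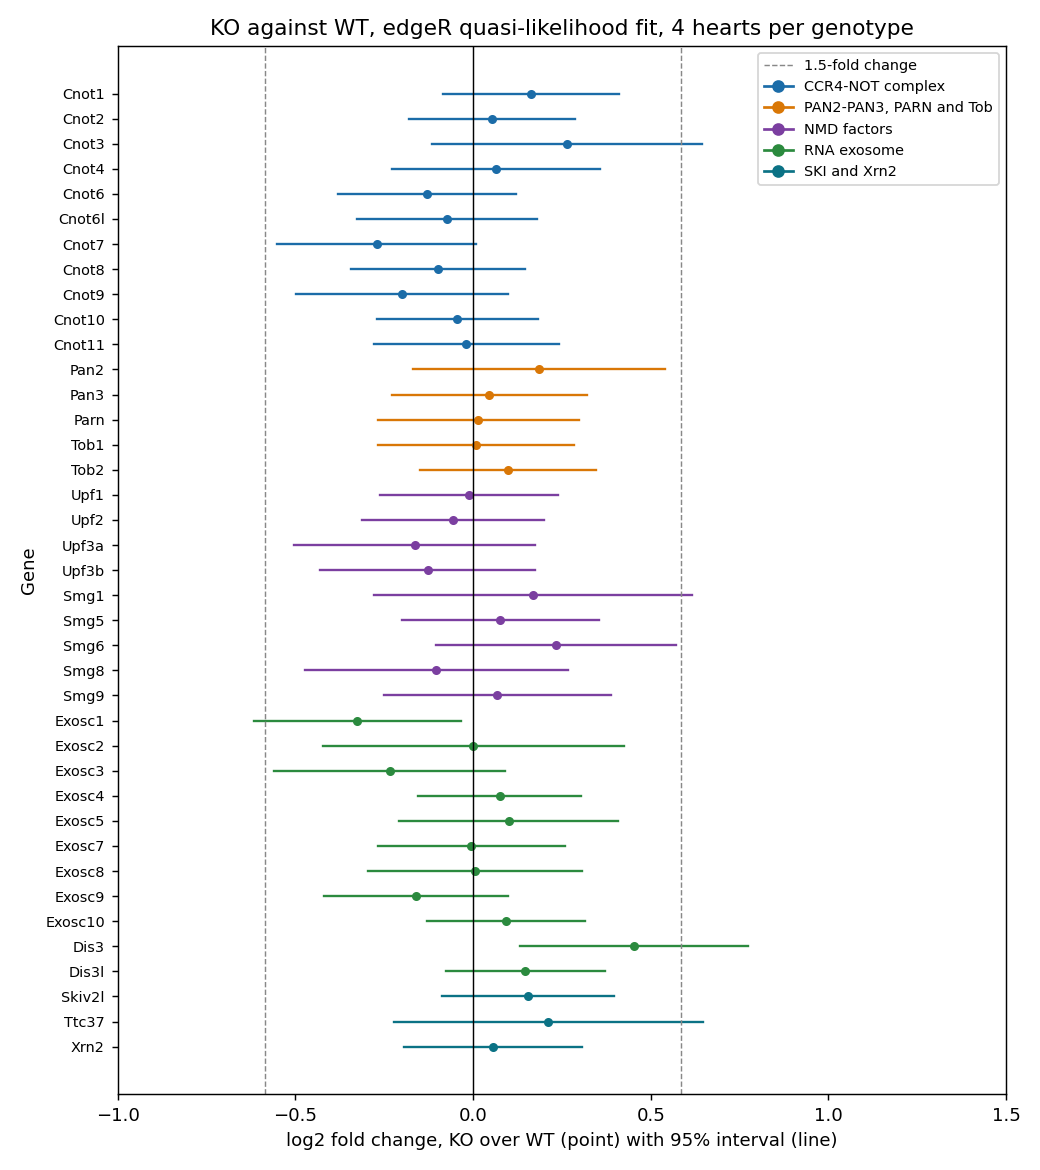
Log2 fold change of KO over WT for each of the 39 genes (points) with its 95% interval (lines) from the edgeR fit on 4 hearts per genotype, coloured by complex, with dashed lines at a 1.5-fold change. Dis3 is the highest at 0.45 and Exosc1 the lowest at -0.33, and the intervals of the other 37 genes include 0.

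The CCR4-NOT complex, the main deadenylase of the cytoplasm, had 4 values above 0 and 7 below it, with a median of -0.04 and a range of -0.27 to 0.26. Cnot7, 1 of the 2 DEDD-type deadenylases that dock on the scaffold Cnot1, had the smallest p of the complex. Cnot7 (ENSMUSG00000031601, chromosome 8 from 40492540 to 40515847, minus strand) stood at 52.2, 59.3, 55.5 and 40.6 CPM in WT replicates 1 to 4 and at 40.4, 44.4, 38.8 and 48.4 CPM in KO replicates 5 to 8. The 3 highest hearts were WT, but WT replicate 4 lay among the KO hearts, so the groups overlapped. The log2 fold change of Cnot7 was -0.27 ± 0.13 SE, and edgeR gave an unadjusted p of 0.0572 and an adjusted p of 0.777. It was -0.38 without WT replicate 4 (edgeR adjusted p = 0.625), -0.20 without WT replicate 2 and -0.18 with a length and GC trend removed.

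Levels of different genes are compared here as RPKM, the CPM divided by the summed length of all exons of the gene in kilobases. Cnot8, the paralog of Cnot7, was the highest subunit at 15.8 ± 1.51 RPKM in WT and 14.8 RPKM in KO. Its log2 fold change was -0.10 ± 0.11 SE (edgeR adjusted p = 0.896), with 36.9, 40.1, 46.0 and 43.7 CPM in WT and 36.96, 41.2, 34.8 and 43.0 CPM in KO, groups that overlapped. Cnot2, which forms the NOT module with Cnot3, followed at 9.08 ± 0.559 RPKM, and Cnot7 at 8.92 ± 1.38 RPKM. These 2 levels were within their spread of each other. Cnot1 itself, the scaffold on which the subunits assemble, was at 3.20 ± 0.359 RPKM and the ubiquitin ligase Cnot4 was lowest at 2.20 ± 0.391 RPKM. With the longest annotated transcript as length in place of all exons, Cnot1 stood at 6.54 and Cnot4 at 5.45 RPKM, Cnot7 at 13.4 stood above Cnot2 at 12.5, and Cnot6l became the lowest at 4.07.

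The other subunits showed little separation between the genotypes. Cnot3 stood at 0.26 ± 0.18 SE (edgeR adjusted p = 0.803), with WT replicate 2 at 17.3 CPM below the other 3 WT hearts at 25.4 to 33.0 CPM and the KO hearts at 27.1 to 35.6 CPM. Without WT replicate 2 the value of Cnot3 was 0.12, and without WT replicate 1 it was 0.41. Cnot9, through which Argonaute-bound GW182 proteins recruit the complex, was at -0.20 ± 0.14 SE, and the values of Cnot10 and Cnot11, partners at the N-terminal end of Cnot1, were -0.04 and -0.02. Cnot6, an EEP-type deadenylase, was at 33.6, 37.8, 38.7 and 34.1 CPM in WT and at 27.6, 33.1, 35.5 and 35.6 CPM in KO, with a value of -0.13 ± 0.12 SE (edgeR adjusted p = 0.858). Its paralog Cnot6l was at 39.7, 34.2, 30.9 and 34.6 CPM in WT and at 28.6, 33.3, 35.5 and 35.2 CPM in KO, with a value of -0.07 ± 0.12 SE (edgeR adjusted p = 0.929). KO replicate 5 was the lowest heart for both, and the groups overlapped. The 4 deadenylase subunits thus all had values below 0, and none of them passed.

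PAN2-PAN3, PARN and the Tob proteins gave 5 values above 0 and none below, from 0.0091 to 0.19 with a median of 0.05, although Pan3, Parn and Tob1 lay just below 0 when scaled by library totals. None of them passed. Pan2, the nuclease that trims long poly(A) tails, had the smallest p of this group. Pan2 (ENSMUSG00000005682, chromosome 10 from 128303335 to 128321358, plus strand) was at 60.5, 41.9, 58.2 and 35.5 CPM in WT and at 58.1, 61.7, 55.5 and 47.8 CPM in KO. The WT hearts formed a high and a low pair, and the KO hearts lay between and just above them, so the log2 fold change of 0.19 ± 0.16 SE did not pass (edgeR adjusted p = 0.852). It was 0.052 without WT replicate 4 and 0.30 without WT replicate 1. Pan3, the adaptor of Pan2, had WT replicates 1 and 3 high at 64.9 and 61.4 CPM and replicates 2 and 4 low at 51.2 and 44.9 CPM, as Pan2 did.

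Tob1, an antiproliferative protein that links poly(A)-binding protein to Cnot7 and Cnot8, had the highest level per length of all 39 genes, 20.4 ± 1.89 RPKM in WT and 20.5 RPKM in KO. Upf1, at 19.5 ± 2.43 RPKM in WT, was within the spread of Tob1. By longest transcript, Tob2 at 20.1 and Cnot8 at 19.9 RPKM in WT were within it too. Tob1 (ENSMUSG00000037573, chromosome 11 from 94211454 to 94215495, plus strand) was at 43.2, 48.6, 51.8 and 42.9 CPM in WT and at 44.0, 39.5, 47.1 and 57.2 CPM in KO. The lowest and the highest heart were both KO, and the log2 fold change was 0.0091 ± 0.13 SE (edgeR adjusted p = 0.991). Tob2 stood at 12.5 ± 1.38 RPKM in WT, and at 20.1 RPKM when length was taken from its longest transcript. Its hearts were at 73.0, 81.0, 95.1 and 84.6 CPM in WT and at 94.1, 92.3, 77.6 and 93.4 CPM in KO. The highest heart was WT, and the log2 fold change of Tob2 was 0.10 ± 0.11 SE (edgeR adjusted p = 0.896), 0.00025 with the length and GC trend removed and 0.16 without WT replicate 3. Parn, a cap-binding poly(A) nuclease that also matures small RNAs, was the lowest of the group at 2.18 ± 0.203 RPKM and differed little between the genotypes, with 10.1 to 12.6 CPM in WT and 11.2 to 12.9 CPM in KO.

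**Figure D2:**
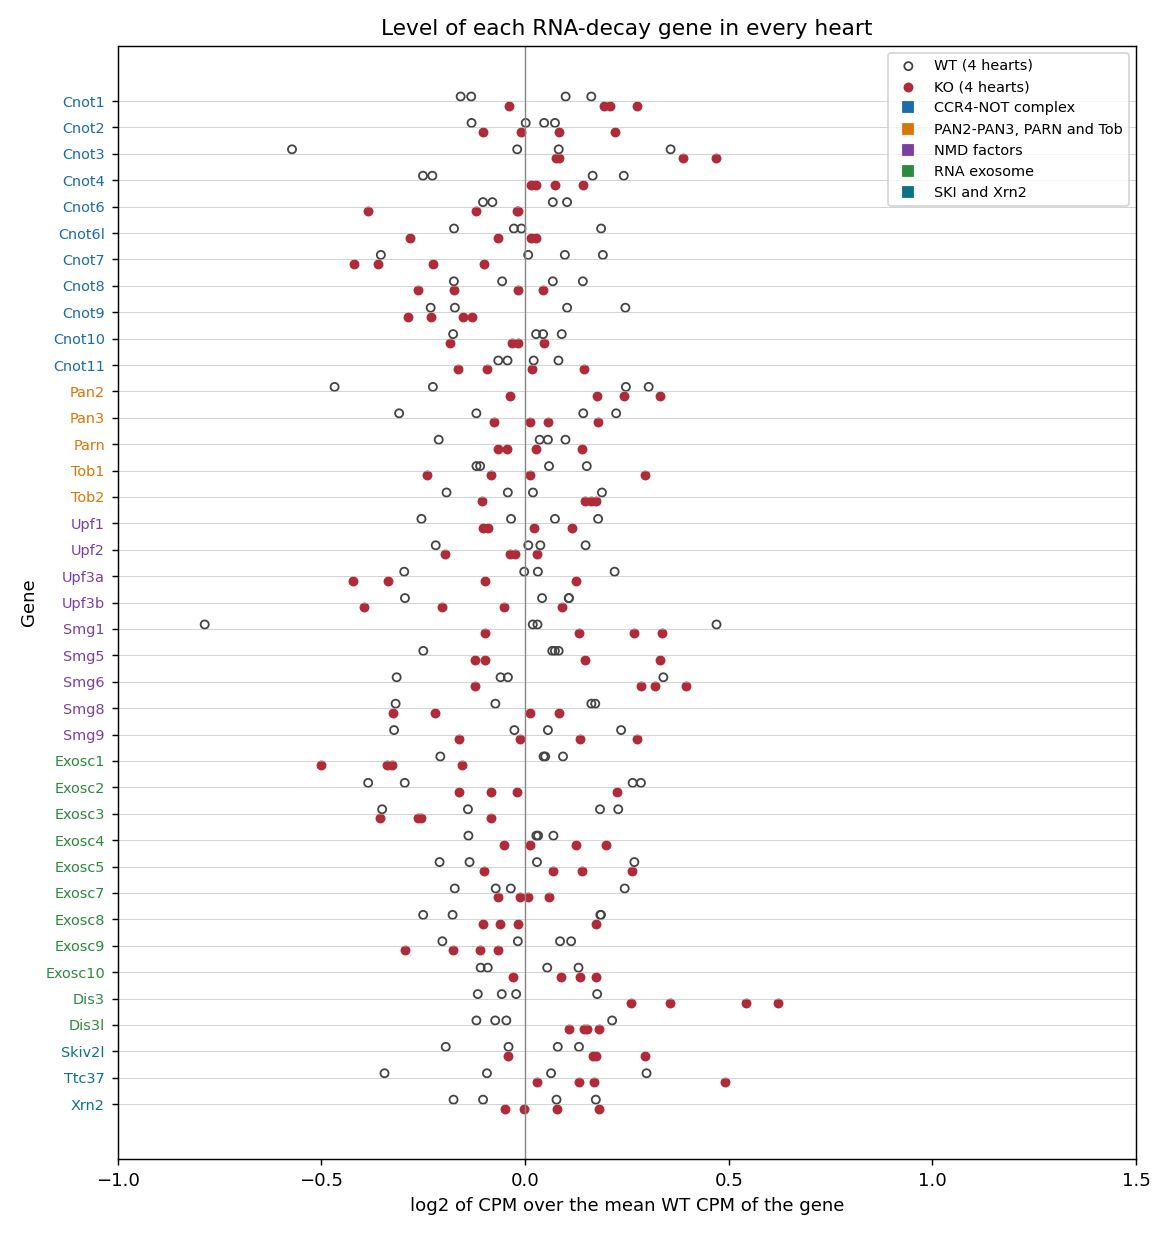
Level of each gene in every heart, as the log2 of its CPM over the mean WT CPM of that gene, with open circles for the 4 WT hearts and filled circles for the 4 KO hearts, and gene names coloured by complex. The circles of the genotypes are separated for Dis3 alone, and WT circles spread widely for Smg1.

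The NMD factors had 4 values above 0 and 5 below it, with a median of -0.01 and a range of -0.16 to 0.23, and none passed. Smg6, the endonuclease that cuts NMD targets near the stop codon, had the smallest p of the group. Smg6 (ENSMUSG00000038290, chromosome 11 from 74925823 to 75164448, plus strand) was at 29.3, 18.6, 22.2 and 22.5 CPM in WT and at 30.4, 28.9, 28.2 and 21.3 CPM in KO. WT replicate 1 lay with the 3 higher KO hearts and KO replicate 8 with the 3 lower WT hearts. The log2 fold change of Smg6 was 0.23 ± 0.16 SE (edgeR adjusted p = 0.804), and it was 0.37 without WT replicate 1 (edgeR adjusted p = 0.400) and 0.14 without WT replicate 2.

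Upf1, the helicase at the centre of NMD, was the most abundant factor of the pathway per length, at 19.5 ± 2.43 RPKM in WT and 19.3 RPKM in KO. Upf1 (ENSMUSG00000058301, chromosome 8 from 70331525 to 70353278, minus strand) was at 94.5, 75.3, 101.7 and 87.7 CPM in WT and at 91.1, 97.2, 83.6 and 84.3 CPM in KO. All 4 KO hearts lay within the WT range, and the log2 fold change was -0.01 ± 0.12 SE (edgeR adjusted p = 0.988), with a 95% interval from -0.26 to 0.24. With the length and GC trend removed the value of Upf1 was -0.136. Upf2, which joins Upf1 to Upf3 proteins, was at 4.12 ± 0.427 RPKM in WT and had a value of -0.06 ± 0.12 SE.

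Upf3a and Upf3b connect Upf2 to the exon junction complex. Upf3b, on chromosome X as Nbdy is, lies from 37091678 to 37110322 on the minus strand and was at 23.4, 22.4, 23.4 and 17.7 CPM in WT and at 23.2, 18.9, 16.6 and 21 CPM in KO. Its log2 fold change was -0.13 ± 0.14 SE (edgeR adjusted p = 0.886), -0.22 without WT replicate 4 and -0.034 with the length and GC trend removed. Upf3a was at 12.8, 15.8, 18.4 and 16.1 CPM in WT and at 17.2, 11.8, 14.8 and 12.5 CPM in KO, with a value of -0.16 ± 0.16 SE (edgeR adjusted p = 0.873) that was -0.28 without KO replicate 5 and -0.086 without WT replicate 3. Both groups overlapped for both genes.

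Smg1, the kinase that phosphorylates Upf1, had the widest spread of the 39 genes between WT hearts. Its level was 99.6, 135.0, 98.8 and 56.5 CPM in WT and 91.1, 106.9, 117.3 and 123.0 CPM in KO. WT replicates 2 and 4 were the highest and the lowest of all 8 hearts, and the coefficient of variation (CV) was 32.9% in WT and 12.8% in KO. The log2 fold change of Smg1 was 0.17 ± 0.21 SE (edgeR adjusted p = 0.903), and it moved to 0.37 without WT replicate 2 and to -0.02 without WT replicate 4. Smg8 and Smg9, the partners that hold Smg1 in check, had values of -0.10 ± 0.17 and 0.07 ± 0.15 SE, and Smg5, an adaptor that binds phosphorylated Upf1, had 0.08 ± 0.13 SE.

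The RNA exosome had 7 values above 0 and 4 below it, with a median of 0.0053. Its nuclease Dis3, which carries both an exonuclease and an endonuclease site, gave the largest difference of the set. Dis3 (ENSMUSG00000033166, chromosome 14 from 99075206 to 99099770, minus strand) gave 98, 98, 94 and 96 counts in the 4 WT hearts and 146, 173, 122 and 133 counts in the 4 KO hearts. This was 7.87, 9.03, 7.68 and 7.37 CPM in WT and 10.2, 12.3, 9.57 and 11.6 CPM in KO, with means of 7.99 ± 0.726 and 10.9 ± 1.25 CPM (SD, n = 4 each). Every KO heart lay above every WT heart. The log2 fold change of Dis3 was 0.45 ± 0.15 SE (95% interval 0.13 to 0.77, 1.37-fold), and edgeR gave an unadjusted p of 0.0093 and an adjusted p of 0.711, so the difference did not pass. Leaving out each heart in turn gave values from 0.39 to 0.52. Of the exons of Dis3, 4.19% overlap Pibf1 on the opposite strand, and Pibf1 was at 7.21 CPM in WT and 7.26 CPM in KO.

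Dis3 was also the lowest exosome gene per length, at 1.03 ± 0.0936 RPKM in WT and 1.41 RPKM in KO, where Dis3l, its cytoplasmic paralog, was at 8.65 ± 0.938 RPKM in WT and 9.58 RPKM in KO. Dis3l was at 54.8, 44.9, 45.7 and 43.5 CPM in WT and at 50.9, 53.6, 52.2 and 52.5 CPM in KO. WT replicate 1 was the highest heart and the other WT hearts the 3 lowest, and the KO hearts had a CV of 2.12%. Its log2 fold change was 0.15 ± 0.10 SE (edgeR adjusted p = 0.814), 0.23 without WT replicate 1 and 0.061 with the length and GC trend removed. Exosc10, the nuclease of the nuclear exosome, was at 11.9 ± 0.963 RPKM in WT with a value of 0.09 ± 0.10 SE. All 3 nucleases thus had values above 0, with a median of 0.15, and none passed.

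The ring and cap genes, whose proteins form the barrel through which RNA is threaded, had 4 values above 0 and 4 below it and a median of -0.0014. Exosc4 of the ring was the highest exosome gene at 16.6 ± 1.04 RPKM in WT and 17.5 RPKM in KO. It was at 29.3, 32.9, 33.0 and 33.9 CPM in WT and at 37.03, 31.2, 35.2 and 32.6 CPM in KO, and the groups overlapped (log2 fold change 0.08 ± 0.11 SE, edgeR adjusted p = 0.917). Oplah overlaps 19.8% of the exon length of Exosc4 on the opposite strand and had a value of 0.34 ± 0.17 SE. Without a stated strand setting, reads of such a pair cannot be assigned with certainty, and 15 of the 39 genes have an exon overlap on the opposite strand.

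Exosc1, a cap protein, had the lowest fold change of the set. Exosc1 (ENSMUSG00000034321, chromosome 19 from 41922292 to 41933423, minus strand) was at 11.7, 14.0, 14.0 and 14.4 CPM in WT and at 10.7, 10.8, 9.57 and 12.2 CPM in KO. KO replicate 8 lay above WT replicate 1, and the other KO hearts lay below all WT hearts. The log2 fold change was -0.33 ± 0.13 SE, and edgeR gave an unadjusted p of 0.0313 and an adjusted p of 0.756. The cap gene Exosc3, at -0.23 ± 0.15 SE, showed 12.3 to 18.4 CPM in WT and 12.2 to 14.8 CPM in KO, and Exosc2, the other cap gene, had a value of 0.0013 ± 0.20 SE. The ring genes Exosc5, Exosc7, Exosc8 and Exosc9 had values of 0.10, -0.0042, 0.0053 and -0.16.

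The SKI complex and Xrn2 gave 3 values above 0, with a median of 0.15, and none passed. Skiv2l, the helicase that unwinds RNA for the cytoplasmic exosome, had both the smallest p and the highest level of these genes, at 10.4 ± 1.03 RPKM in WT and 11.6 RPKM in KO. Skiv2l (ENSMUSG00000040356, chromosome 17 from 34839228 to 34850210, minus strand) was at 54.9, 50.5, 56.9 and 45.4 CPM in WT and at 63.8, 58.3, 58.6 and 50.5 CPM in KO. The 3 highest hearts were KO and the fourth KO heart lay among the WT hearts (log2 fold change 0.15 ± 0.11 SE, edgeR adjusted p = 0.817). With the length and GC trend removed the value of Skiv2l was 0.016, and without WT replicate 4 it was 0.090. The table also lists a pseudogene copy, Skiv2l-ps1, so that reads of Skiv2l may be shared with it. Ttc37, the scaffold of the SKI complex, was the lowest of the 39 genes at 0.417 ± 0.0775 RPKM in WT, with 42 to 79 counts per heart and a value of 0.21 ± 0.20 SE that was 0.11 without KO replicate 8 and 0.32 without WT replicate 3. Xrn2, a nuclear exonuclease that acts from the 5' end, was at 7.44 RPKM and 26.2 to 33.4 CPM in WT with a value of 0.06 ± 0.12 SE.

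**Figure D3:**
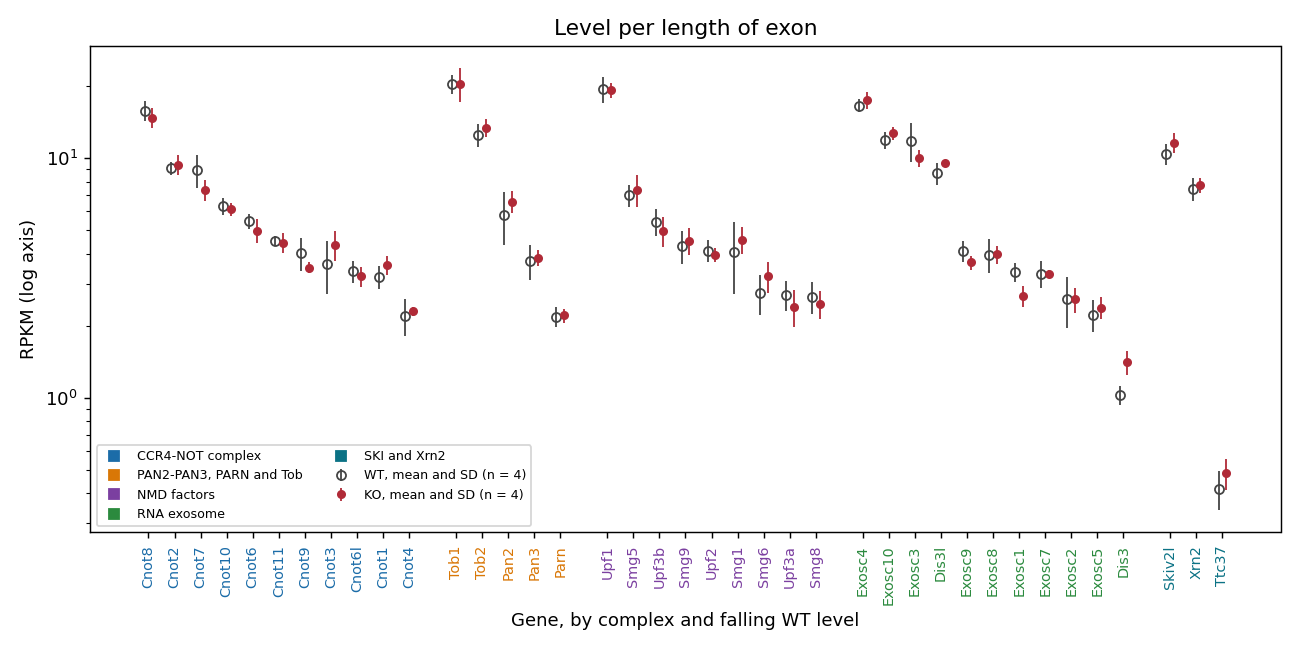
Mean level per exon length (RPKM, log axis) with SD over 4 hearts for each gene in WT (open) and KO (filled), ordered by WT level within each complex. Tob1, Upf1, Exosc4 and Cnot8 lead their groups at 20.4, 19.5, 16.6 and 15.8 RPKM in WT, and Dis3 and Ttc37 lie lowest at 1.03 and 0.417 RPKM.

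The balance between paralogs within a heart does not depend on how libraries are scaled, and it was compared for 5 pairs with exact permutation tests (two-sided, 70 assignments, smallest possible p 0.0286). The groups overlapped in all 5 pairs and no pair passed. The log2 ratio of Dis3 to Dis3l counts was -2.80, -2.31, -2.58 and -2.56 in WT and -2.32, -2.13, -2.45 and -2.17 in KO. The difference of the means was 0.30 (exact permutation p = 0.0857, 0.429 adjusted over the 5 pairs), and 1 WT heart, replicate 2, had a ratio within the KO range. Per exon length Dis3 stood at 0.120 of Dis3l in WT.

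For Cnot7 over Cnot8 the log2 ratio was 0.31 ± 0.30 (SD, n = 4) in WT and 0.14 ± 0.028 in KO (exact permutation p = 0.314, adjusted 0.786), with WT replicate 4 the lowest at -0.11. The ratio of Cnot6 to Cnot6l was 0.05 ± 0.24 in WT and -0.01 ± 0.031 in KO (exact permutation p = 0.686, adjusted 0.857). In both deadenylase pairs the 4 KO hearts lay closer together than the 4 WT hearts, a difference in spread that was not tested. Tob1 over Tob2 stood at -0.84 ± 0.11 in WT and -0.94 ± 0.26 in KO (exact permutation p = 0.543, adjusted 0.857). KO replicates 5 and 6 were at -1.10 and -1.23 and KO replicates 7 and 8 at -0.72 and -0.71, so here the KO hearts were the more spread. Upf3a over Upf3b was -0.47 ± 0.31 in WT and -0.51 ± 0.26 in KO (exact permutation p = 0.886, adjusted 0.886). Per exon length, Cnot6 stood at 1.63 times Cnot6l and Cnot7 at 0.569 of Cnot8 in WT, and Upf3a at 0.502 of Upf3b. Tob1 was at 1.63 times Tob2 with all exons as length and at 1.02 times with the longest transcript.

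**Figure D4:**
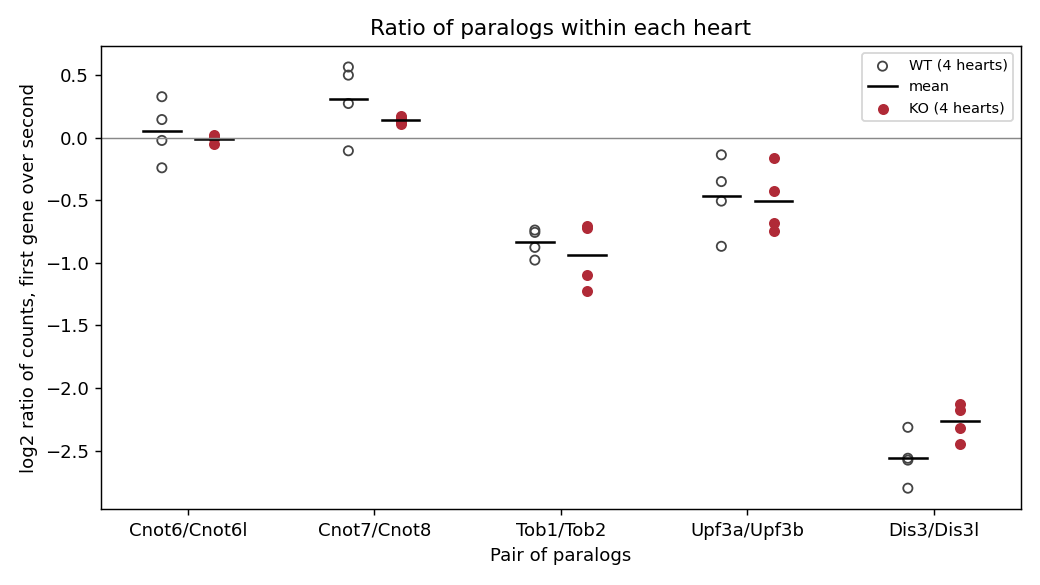
Log2 ratio of the counts of 2 paralogs in each heart (circles, open for WT and filled for KO) and the group means (bars) for 5 pairs. The Dis3 to Dis3l ratio has means of -2.56 in WT and -2.27 in KO, and the KO circles of Cnot6 to Cnot6l and Cnot7 to Cnot8 lie close together.

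The spread of the 39 transcripts between hearts differed by gene, with CVs from 4.65% to 32.9% in WT and 2.12% to 17.4% in KO. Their median CV was 11.2% in WT and 9.58% in KO, against 14.8% and 11.3% over the 9048 genes within the same range of WT CPM. The CV was larger in WT than in KO for 28 of the 39 genes, and for 65.1% of all genes tested. The summed level of the set was 1193 to 1356 CPM in WT and 1303 to 1359 CPM in KO. WT replicates 4 and 2, at 1193 and 1287 CPM, lay below all KO hearts, and the other WT hearts lay within the KO range. Across the set, the log2 fold change was higher for genes with a longer exon length (length on the log2 scale, Pearson r = 0.445, Spearman rho = 0.476 over 39 genes, which share the same 8 libraries), where r was 0.047 over the 13232 genes with a length. The 20 longer genes had a median of 0.09 and the 19 shorter ones 0.0013. Per library, the slope of log2 CPM on log2 gene length was highest in WT replicate 1 at 0.075, and the other 7 hearts lay between -0.048 and 0.039. The mean slope differed by 0.011 between KO and WT (exact permutation p = 0.8, adjusted 0.889 over 10 measures).

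Partners of these complexes were read from the same fit, and none of them passed. Of 13 tested deadenylation partners 4 were above 0 and 9 below, with a median of -0.12. Noct, a circadian protein of the deadenylase fold, had the smallest p at -0.48 ± 0.22 SE (edgeR adjusted p = 0.777), and Btg2, a Tob relative, was at -0.63 ± 0.45 SE (edgeR adjusted p = 0.817). Without WT replicate 2 the value of Noct was -0.295 and that of Btg2 -0.38, and without KO replicate 7 Btg2 was at -1.19. Btg2 was at 50.5 CPM in WT replicate 1 and at 164 to 229 CPM in the other WT hearts. It was at 44.7, 59.3, 195 and 99.4 CPM in KO, and the sum of immediate early genes was likewise low in WT replicate 1, at 401 CPM against 1104 to 1167 CPM in the other WT hearts.

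Of 13 tested partners in NMD and the exon junction complex, 5 were above 0 and 8 below, with a median of -0.08. The release factor Etf1 was at -0.26 ± 0.11 SE (edgeR adjusted p = 0.772), and at -0.16 without WT replicate 2. Magoh, a core protein of the exon junction complex, was at 22.7, 24.0, 25.2 and 24.1 CPM in WT and at 21.2, 17.0, 21.3 and 21.8 CPM in KO. All KO hearts lay below all WT hearts for Magoh (log2 fold change -0.24 ± 0.12 SE, edgeR adjusted p = 0.777), a separation shown by 1.98% of all genes in this direction. With the length and GC trend removed the value of Magoh was -0.098. Rnps1, a splicing factor that joins this complex, was at 0.25 ± 0.19 SE (edgeR adjusted p = 0.824), at 0.14 without WT replicate 2 and at 0.40 without KO replicate 7. The last list of 15 tested genes held exosome cofactors and other genes, among them Mpp6, Pelo, Dis3l2 and Xrn1. Of these 15 genes, 6 were above 0 and 9 below, with a median of -0.0036. The nuclear cofactors C1d and Mphosph6 had values of -0.23 ± 0.11 SE (edgeR adjusted p = 0.777) and -0.26 ± 0.16 SE (edgeR adjusted p = 0.797), and with the length and GC trend removed they were at -0.11 and -0.17. Zfc3h1, which takes nuclear polyadenylated RNA to the exosome, had 0.23 ± 0.14 SE (edgeR adjusted p = 0.797), 0.36 without WT replicate 1 and 0.14 without WT replicate 4.

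Among 14 tested transcripts that are reported targets of NMD, 2 were above 0 and 12 below, with a median of -0.10, and none passed. Gadd45b, a stress-induced regulator of growth arrest, was at 3.05, 8.76, 6.13 and 4.15 CPM in WT and at 9.94, 10.9, 10.4 and 14.96 CPM in KO. All KO hearts lay above all WT hearts, a separation shown by 2.14% of all genes in this direction. The log2 fold change of Gadd45b was 1.07 ± 0.27 SE without passing (edgeR adjusted p = 0.652). Atf3, a stress-induced transcription factor, had a value of -2.32 ± 0.91 SE (edgeR adjusted p = 0.734). This value came with 260 CPM in WT replicate 2 and 5.94 to 23.8 CPM in the other WT hearts, against 6.16 to 25.1 CPM in KO. Without WT replicate 2 the value of Atf3 was -0.06. Gadd45a was at -0.36 ± 0.16 SE (edgeR adjusted p = 0.772), and at -0.18 without WT replicate 4, which held 34.7 CPM against 21.6 to 25.4 CPM in the other WT hearts. Several of these targets are also induced by stress. The sum of immediate early genes ran from 401 to 1167 CPM in WT and from 342 to 1405 CPM in KO (exact permutation p = 0.429, adjusted 0.714 over 10 measures). All 10 immediate early genes had values below 0, with a median of -0.38. Atf3 was counted both among them and among the NMD targets. The part of stress in the values of these targets was not tested.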

How the data were processed

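Poly(A) RNA of 8 left ventricles, 1 library each, was sequenced from TruSeq stranded libraries, per the labels' protocols. The submitters' processing notes name STAR 2.7.1a as aligner and GRCm38 (mm10) as build. The tool that counted the reads, its strand setting and its annotation release were not given in the sources used here. Raw whole-number counts per Ensembl gene were deposited. If they were counted without strand, reads from exons shared by antisense genes could be given to either gene or left out. Which of these happened was not tested.

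The count table was fitted as a whole in edgeR 4.0.16 under R 4.3.3, after filterByExpr at a minimum count of 10 and TMM scaling. Genotype was the only term of the two-sided quasi-likelihood test (glmQLFTest), with Benjamini-Hochberg adjustment at a threshold of 0.05. Symbols, positions and exon lengths came from GENCODE M21. All pairs of libraries differed beyond sampling noise, with a chi-square of 11.4 to 59.4 per degree of freedom, so each counted as 1 sample. The same test was also run on simulated counts, and its outcome there is not reported here.

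Full values are given for Nbdy, for the gene with the smallest p and the gene with the highest RPKM of each complex, and for both genes of each paralog pair. Of the partners, the 3 with the smallest p of each list are named, with fold change and adjusted p. Exosc1, Cnot3, Smg1, Ttc37 and other genes outside this rule were named after their values were seen. A partner that the rule names is not reported here. The members and lists were chosen with earlier results of these data known. As alternatives, the scaling was replaced by DESeq2 size factors or library totals, the test by DESeq2 1.42.0 or limma-voom (limma 3.58.1), and the filter by none or by 1 CPM in 4 libraries. Further fits left out mitochondrially encoded genes, a length and GC trend, or each library in turn, and a threshold of 0.1 and other settings for ratios and lengths were tried.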

Additional observations from a re-analysis of the deposited data

Results flagged for a closer look

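In each genotype, the highest or lowest of the 4 hearts was compared with the other 3 for every gene of the set and every composition measure, and 4 of 98 groups had a heart that stood apart. Chance flags about 1 in 20 groups, which is 4.9 of 98. Tob2 stood at 77.6 CPM in KO replicate 7 and at 92.3 to 94.1 CPM in the other KO hearts. Smg5 stood at 41.0 CPM in WT replicate 2 and at 51.1 to 51.6 CPM in the other WT hearts. WT replicate 1 stood apart in both of the other measures, with 29.2% of its counts from mitochondrial genes against 19.4% to 19.9%, and with 401 CPM of immediate early genes in sum against 1104 to 1167 CPM. Without WT replicate 1, unadjusted edgeR p-values were under 0.05 for 6 of the 39 genes (Cnot3, Smg6, Exosc1, Exosc3, Dis3 and Dis3l), with adjusted p-values from 0.339 to 0.430, and for 1452 of the 13542 genes tested in that fit (10.7%). The part of that library in these counts was not tested beyond leaving it out.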

How the results depend on the processing

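None of the 39 genes passed under any of the 16 other fits or at an adjusted p of 0.1, and 22 of them kept the sign of their fold change throughout. The value of 36 of the 39 moved by over 1.5 times in at least 1 of those fits, all but Cnot1, Exosc1 and Dis3. Dis3 stayed between 0.39 and 0.52, with adjusted p-values from 0.349 to 0.952. No paired analysis was possible because the replicate numbers 1 to 4 and 5 to 8 are not shared between the groups. The genes at an unadjusted p under 0.05 numbered 1 after the length and GC trend was removed, where 5.03% of all genes tested did, and from 1 to 6 with each heart left out. They numbered 1 without WT replicate 2 or 3 or KO replicate 5, 6 or 7, where 4.88% to 5.63% of all genes did, and 6 without WT replicate 1, where 10.7% did. Over all genes, 11 passed in DESeq2, 10 with no filter and from 2 to 6 with each heart left out. The median over the set was -0.036 with library totals and from -0.025 to 0.060 with each heart left out. With library totals the values were -0.0010 for Pan3, -0.036 for Parn, -0.044 for Tob1, -0.051 for Exosc2 and -0.046 for Exosc8, and limma-voom gave -0.00046 for Tob1. With the length and GC trend removed they were 0.0045 for Upf2, -0.058 for Smg5, -0.062 for Smg9, -0.010 for Exosc2, -0.0067 for Exosc5 and 0.026 for Exosc7. Leaving out each heart gave -0.011 to 0.10 for Cnot2, -0.016 to 0.15 for Cnot4, -0.098 to 0.00027 for Cnot10, -0.079 to 0.026 for Cnot11, -0.049 to 0.13 for Pan3, -0.048 to 0.046 for Parn, -0.0996 to 0.081 for Tob1, -0.087 to 0.050 for Upf1, -0.025 to 0.37 for Smg1, -0.019 to 0.14 for Smg5 and -0.024 to 0.15 for Smg9. It gave -0.11 to 0.11 for Exosc2, -0.056 to 0.083 for Exosc7, -0.075 to 0.073 for Exosc8 and -0.0016 to 0.12 for Xrn2. The same removal gave differences of -0.16 to 0.029 for the Cnot6 to Cnot6l ratio, -0.17 to 0.070 for Upf3a to Upf3b, -0.0035 to 0.037 for the length slope, -1068 to 4491 CPM for heart muscle markers, -72.2 to 31.3 CPM for endothelial markers and -4.91 to 4.999 CPM for macrophage and lymphocyte markers. Where leaving out a heart or changing the scaling turned a value, the cause was not tested. The counts behind a value were as low as 42 per heart, for Ttc37, whose interval reached beyond 1.5-fold.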
